A study of Mus musculus with 5 samples.

Results

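Cells of the embryonic mouse cerebellum in which the transcripts of Atoh1, Barhl1, Eomes and Otx2 were all detected, and that of Lmx1a was not, are described here. They were chosen by detection alone, meaning at least 1 UMI (unique molecular identifier, a count of molecules) of each of the 4 genes and none of Lmx1a, in the libraries with RL in their titles. 356 cells met this rule, of 2262 cells with Atoh1 and Barhl1, 4311 cells of the RL libraries and 6987 cells in the series. They are called Eomes+Otx2+ cells below. The RL libraries were 2 titled e14 and 2 titled e13, made from cerebellar tissue with droplet-based 3′ single-cell RNA sequencing (10x Chromium). The titles also carry the letters UT, which the labels do not spell out, and the labels give neither genotype, strain nor treatment. For RL e13 replicate 2 the title says e13 but the age tag says e14, and the title was used. The fifth library, titled EomesCreER-e16, was outside the rule.

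Atoh1 is a basic helix-loop-helix factor that marks the progenitors leaving the rhombic lip, the dorsal germinal zone of the hindbrain, and it keeps granule cell progenitors dividing. Barhl1 is a homeobox factor that acts downstream of it. Eomes, a T-box factor, and Lmx1a mark the lineage of unipolar brush cells, excitatory interneurons that leave the rhombic lip in the same period as granule cells, and Otx2 is a homeobox factor of the caudal rhombic lip and its progeny. The series is titled after a search for the origin of Group 3 and Group 4 medulloblastoma, tumours in which OTX2 and EOMES are often expressed.

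The genes that chose the cells lie on separate chromosomes of the mouse genome (GRCm38, mm10), all as protein-coding genes. Atoh1 spans 64729125 to 64731245 of chromosome 6, Barhl1 28907679 to 28916668 of chromosome 2, Eomes 118478212 to 118486132 of chromosome 9, Otx2 48657677 to 48673819 of chromosome 14, and Lmx1a 167689237 to 167848741 of chromosome 1. Since these 5 genes made the classes, their values are given without a test.

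4 other classes of Atoh1- and Barhl1-detected cells from the same libraries served for comparison. The 1060 double-negative cells had neither Eomes nor Otx2, and 13 of them had Lmx1a. The 576 Otx2-only cells and the 143 Eomes-only cells had 1 of the 2 genes and no Lmx1a. A further 94 cells had both genes and Lmx1a as well. RL e13 replicate 1 stood apart from the other RL libraries: 9.77% of its 706 cells had Atoh1 and Barhl1, against 57.3% to 65.3% in the others, and it held 9 of the 356 Eomes+Otx2+ cells. It fell under the minimum of 20 cells per class, so fits across genes rest on the other 3 RL libraries unless stated. Among the RL libraries, 6 cells shared their barcode with a cell of another RL library.

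Eomes+Otx2+ cells made up a similar share of the Atoh1- and Barhl1-detected cells in every RL library. The share was 17.6% (120 of 683 cells, 95% Wilson interval 14.9% to 20.6%) in RL e14 replicate 1 and 15.4% (72 of 468, 12.4% to 18.9%) in RL e14 replicate 2. In the e13 libraries it was 13% (9 of 69, 7.02% to 23%) in replicate 1 and 14.9% (155 of 1042, 12.8% to 17.2%) in replicate 2. These intervals cover counting error only. The mean was 16.5% ± 1.54 (SD, n = 2) at e14 and 14% ± 1.30 (SD, n = 2) at e13, a difference of 2.52 percentage points (exact two-sided permutation test, p = 0.333, the smallest that 2 against 2 libraries allow). Grouping RL e13 replicate 2 by its age tag gave a difference of 2.90 points. As a share of all cells the range was wider, from 1.27% in RL e13 replicate 1 to 11.5% in RL e14 replicate 1.

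Many of these cells lay at the threshold for Eomes. Eomes was read at 1 UMI in 142 of the 356 cells (39.9%) and Otx2 at 1 UMI in 68 (19.1%). 30 cells had 1 UMI of each gene, and 176 had at least 2 of both. Of 347 cells that could be thinned to 10000 UMIs, 183 still met the rule afterwards. The classes without Eomes, Otx2 or both can thus hold cells in which a transcript was missed. The median was 2 UMIs of Eomes (highest 22), 4 of Otx2 (highest 46), 5 of Atoh1 (highest 27) and 9 of Barhl1 (highest 33). Just outside the rule, 56 of the 94 cells excluded by Lmx1a had a single UMI of it. In cells with Sox2 but without Atoh1 and Barhl1, a neural population that should lack Eomes, Eomes was found in 0 of 147, 1 of 108, 2 of 358 and 1 of 452 cells, at most 0.926% in a library. Its share was 24.6% to 27.3% in the Atoh1- and Barhl1-detected cells of the same libraries, where the median depth was 16318 to 22897 UMIs against 14551.5 to 17691. Otx2 was found in 7.26% to 36.7% of those Sox2 cells, against 33.3% to 56.8% of the Atoh1- and Barhl1-detected cells, and no population that should lack Otx2 was at hand to give its background share.

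Otx2 was detected more often in cells with Eomes than in cells without it. Among Atoh1- and Barhl1-detected cells without Lmx1a, Otx2 was detected in 75.9% of cells with Eomes and 39.0% of cells without it in RL e14 replicate 1. The same shares were 79.1% and 48.0% in RL e14 replicate 2, 56.2% and 24.4% in RL e13 replicate 1, and 66.2% and 28.0% in RL e13 replicate 2. The odds ratio lay between 3.97 and 5.05 in the 4 libraries. After each cell was thinned to 10000 UMIs it lay between 2 (RL e13 replicate 1, 4 cells with both) and 5.48.

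The levels of the genes that chose the cells also varied between classes. A level is the mean over cells of a class, in CPM (UMIs per 1000000 UMIs of the cell), and values given in 3s follow one order: first the e14 libraries by replicate number, then RL e13 replicate 2. Atoh1 stood at 291.8, 260.3 and 333.1 CPM in Eomes+Otx2+ cells and at 404.3, 394.1 and 438.6 CPM in double-negative cells. Eomes+Otx2+ cells thus had detectable but lower Atoh1 in each of these libraries. Eomes stood at 183.7, 186.0 and 153.1 CPM, against 409.2, 495.2 and 339.9 CPM in the cells that also had Lmx1a. Otx2 stood at 364.3, 410.5 and 249.1 CPM, against 229.6, 198.0 and 169.9 CPM in Otx2-only cells. The order was the same in the 3 libraries: Otx2 was higher beside Eomes, and highest with Lmx1a (831.3, 610.4 and 442.5 CPM). Barhl1 was at 466.2 to 518.2 CPM in Eomes+Otx2+ cells and 419.4 to 460.6 CPM in double-negative cells of these libraries.

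**Figure D1:**
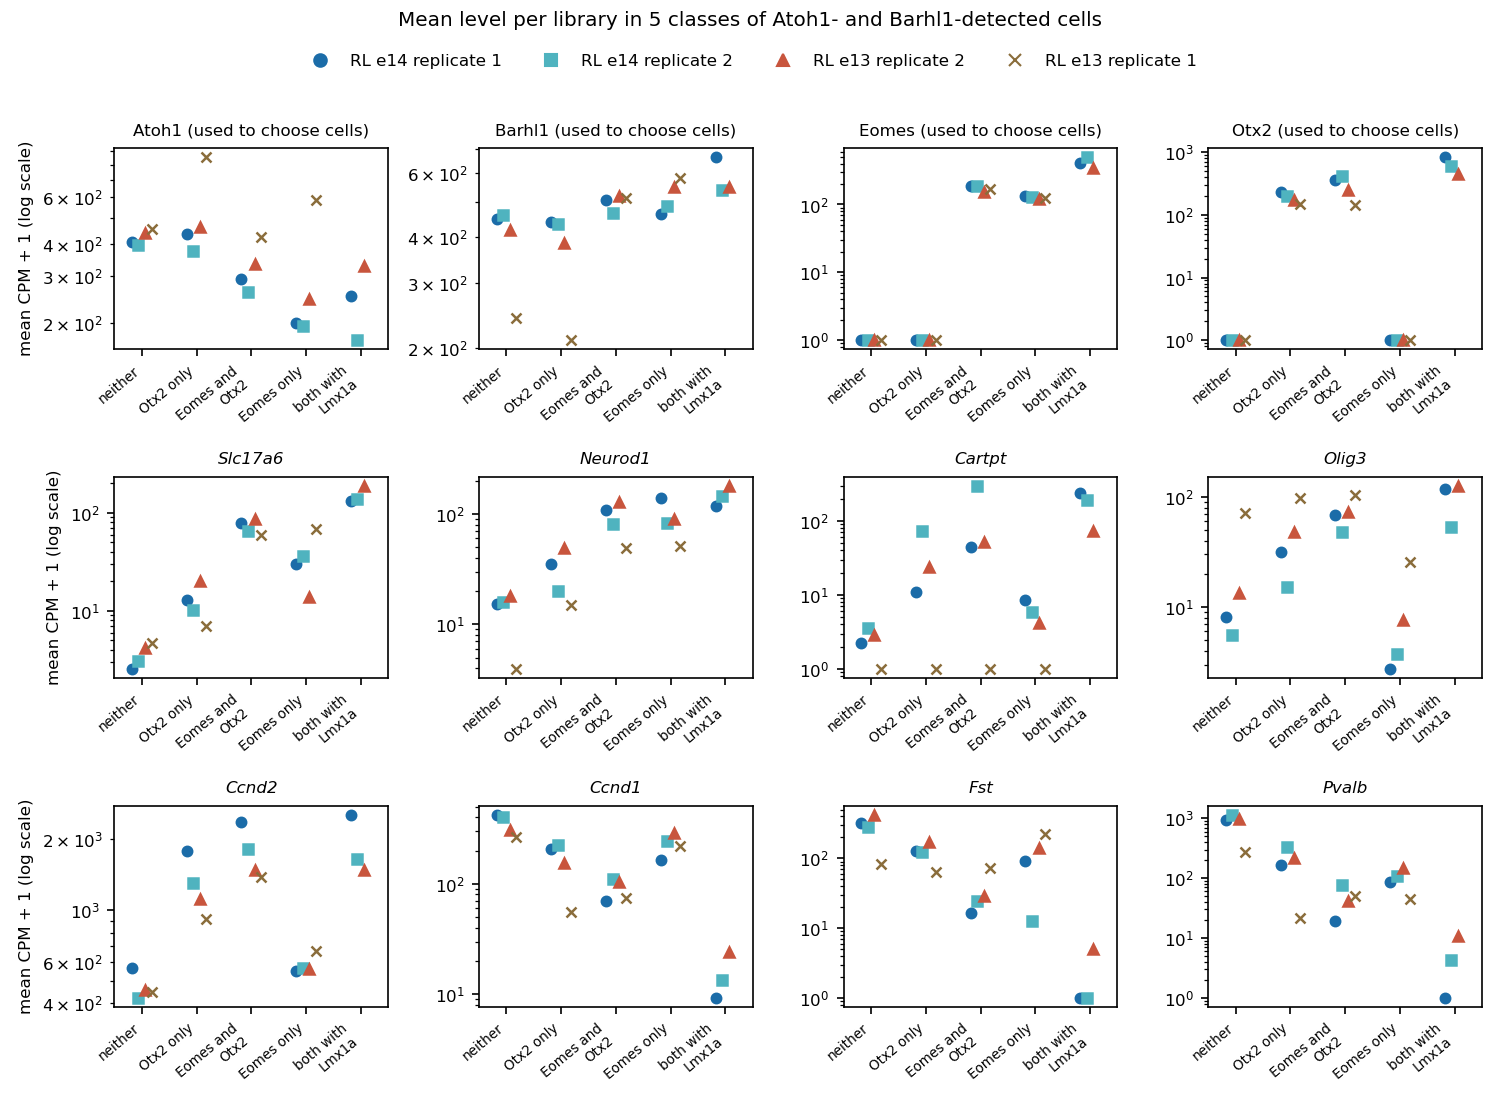
Mean level (CPM + 1, log axis) of 12 genes in 5 classes of cells with Atoh1 and Barhl1, 1 point per library, for classes with 5 or more cells in the library. Slc17a6 and Neurod1 sit higher in the Eomes and Otx2 class than in the class with neither gene, and Ccnd1 and Pvalb lower, in all 4 libraries. Fst lies lower in the 3 larger libraries and close to its level in the other class in RL e13 replicate 1 (crosses).

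Against double-negative cells, Eomes+Otx2+ cells had more transcripts of Slc17a6, of most of the neuronal differentiation genes tested and of cyclin D2. They had fewer of Fst, Pvalb, cyclin D1 and most of the neural stem cell (radial glia) genes tested. Of 8190 genes tested over 3 libraries, 834 were higher (10.2% of genes tested) and 702 lower (8.57%) in Eomes+Otx2+ cells (limma with the library as a block, Benjamini-Hochberg adjusted p under 0.05, the 5 rule genes left out). Differences are in log2(CPM + 5), which understates changes of genes at low levels. Their median over all genes was -0.01. With RL e13 replicate 1 added at a minimum of 5 cells, the counts were 309 higher and 259 lower. With no library block they were 352 and 277, and with cells thinned before the rule was applied, 418 and 411.

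**Figure D2:**
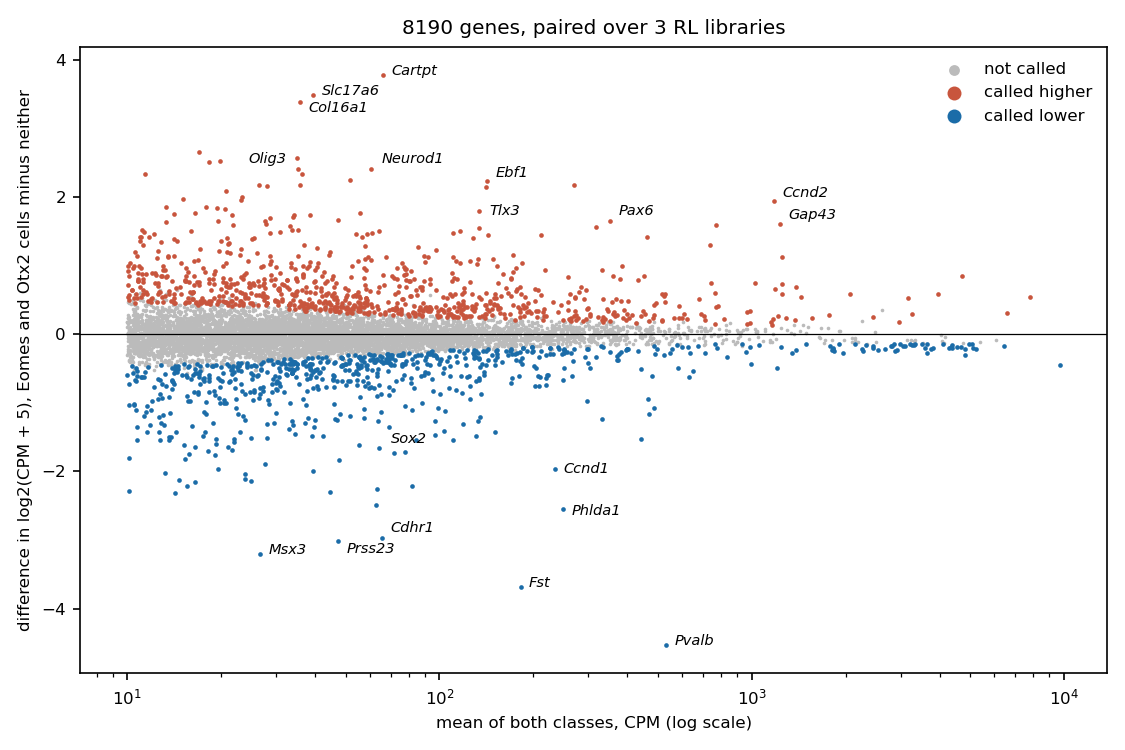
Difference in log2(CPM + 5) between Eomes and Otx2 cells and cells with neither gene, against the mean level of both classes (CPM, log axis), 1 point per gene for 8190 genes. Red points were called higher and blue points lower at an adjusted p under 0.05, and Cartpt (3.77) and Pvalb (-4.53) are the extremes of the genes named.

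Slc17a6, which encodes the vesicular glutamate transporter VGLUT2, was higher in every RL library. Its level was 78.0, 65.1 and 86.5 CPM in Eomes+Otx2+ cells and 1.56, 2.07 and 3.19 CPM in double-negative cells. The ranges lay far apart, and RL e13 replicate 1 had 58.1 against 3.68 CPM. The log2 difference was 3.48 ± 0.13 (SE, n = 3 libraries, limma adjusted p = 2.8e-08). At least 1 UMI of Slc17a6 was found in 54.2% to 66.7% of Eomes+Otx2+ cells and in 1.68% to 2.75% of double-negative cells over the 4 libraries.

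Neurod1, a basic helix-loop-helix factor of neuronal differentiation, stood at 108.4, 80.0 and 128.3 CPM against 14.4, 15.0 and 17.0 CPM. Each Eomes+Otx2+ value was over 4 times every double-negative value. The log2 difference was 2.41 ± 0.12 (SE, n = 3, limma adjusted p = 1.9e-07). Olig3, a basic helix-loop-helix factor of the rhombic lip, stood at 68.0, 47.4 and 72.3 CPM against 7.17, 4.54 and 12.3 CPM (2.4 ± 0.13, adjusted p = 3.1e-07). In RL e13 replicate 1 Olig3 was 103.4 against 70.4 CPM, so there the level in double-negative cells was high too.

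Cartpt, which encodes the neuropeptide precursor CART, had the largest log2 difference of the genes named (3.77 ± 0.35, SE, n = 3, limma adjusted p = 1.5e-05) and the widest spread between libraries. It stood at 43.6, 294.6 and 51.6 CPM against 1.26, 2.56 and 1.86 CPM. RL e14 replicate 2 was high, and no UMI was found in either class of RL e13 replicate 1. Col16a1, a fibril-associated collagen, rose from 2.04 ± 1.40 to 69.3 ± 17.2 CPM (SD, n = 3), a log2 difference of 3.39. In RL e13 replicate 1 its difference was -0.37, and with that library added at a minimum of 5 cells Col16a1 (2.45, limma adjusted p = 0.073) and Cartpt (2.83, adjusted p = 0.064) no longer passed the test. Mab21l2 (2.57), Vat1l (2.34) and Rnf182 (2.25) completed the 8 genes with the largest gains among those at 50 CPM or more in the higher class, the limit used for naming genes by size. In RL e13 replicate 1 their differences were 2.06, 1.22 and 0.04, so the gain of Rnf182 was not seen there.

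Pvalb, the calcium buffer parvalbumin, had the largest loss. Its level was 18.3, 76.5 and 40.5 CPM in Eomes+Otx2+ cells and 931.0, 1145 and 975.8 CPM in double-negative cells, a log2 difference of -4.53 ± 0.19 (SE, n = 3, limma adjusted p = 5.9e-08). The ranges did not overlap, and RL e13 replicate 1 had 50.3 against 271.3 CPM. Fst encodes follistatin, a secreted antagonist of activin. It stood at 15.4, 23.3 and 27.7 CPM against 321.0, 282.4 and 421.3 CPM (-3.68 ± 0.11, adjusted p = 9.2e-09). In RL e13 replicate 1 the difference was -0.19, at 71.8 against 82.6 CPM, so this loss was not seen in its 9 cells. Inhbb, the activin beta B subunit, was higher by 2.18 and was, with Fst, the only called gene of 6 tested in the TGF beta and activin list. In RL e13 replicate 1 the Inhbb difference was -0.63, and at a minimum of 5 cells Inhbb did not pass the test (1.47, limma adjusted p = 0.14).

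Msx3, a homeobox gene of the dorsal neural tube, was at 0.684, 0 and 2.99 CPM against 44.7, 48.1 and 63.2 CPM, and no UMI was found in the 9 Eomes+Otx2+ cells of RL e13 replicate 1. The log2 difference was -3.21 ± 0.14 (SE, n = 3, limma adjusted p = 6.6e-08). Prss23 (-3.01), Cdhr1 (-2.97), Phlda1 (-2.55), Bcas1 (-2.49) and Sparcl1 (-2.30) were the other genes with the largest losses at the same limit of 50 CPM.

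The D-type cyclins moved in opposite directions. These proteins drive cells through G1. Ccnd2 stood at 2351, 1821 and 1473 CPM in Eomes+Otx2+ cells and 562.5, 421.7 and 457.0 CPM in double-negative cells (log2 difference 1.94 ± 0.07, SE, n = 3, limma adjusted p = 2.4e-08). Ccnd1 stood at 69.2, 108.8 and 102.1 CPM against 419.9, 403.2 and 306.6 CPM (-1.97 ± 0.14, adjusted p = 1.7e-06). Neither gene's ranges overlapped, and RL e13 replicate 1 moved the same way for both, with Ccnd2 at 1380 against 444.1 CPM and Ccnd1 at 73.7 against 261.7 CPM. In the list of G1 and cell cycle exit genes, 5 of 14 tested were higher and 3 lower (median 0.06). The inhibitors of cyclin-dependent kinases were split: Cdkn1a was higher (1.59) and Cdkn1c lower (-1.55). Cdkn1c is named after its value was seen.

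Eomes+Otx2+ cells held transcripts of dividing cells at least as often as double-negative cells. 15 of 18 genes of G2 and M phase were higher and none lower (median log2 difference 0.40, all genes -0.01), among them Ube2c (0.81), Cdc20 (0.75) and Hmmr (0.62), which act in mitosis. In RL e13 replicate 1 Cdc20 (-0.37) and Hmmr (-1.07) were lower, and at a minimum of 5 cells neither passed the test (Cdc20 0.47, limma adjusted p = 0.24, and Hmmr 0.20, adjusted p = 0.75). Of 16 S phase genes, none was higher and 1, Mcm6 (-0.34), was lower (median 0.05). Mcm6 was higher in RL e13 replicate 1 (0.78). Mki67, a marker of cycling cells, stood at 197.6, 190.5 and 265.9 CPM against 148.1, 164.4 and 212.1 CPM, and the log2 difference of 0.31 ± 0.07 passed the test (limma adjusted p = 0.0056). RL e13 replicate 2 set the upper end of both ranges, which overlapped. Over 16 alternatives the Mki67 difference lay between 0.06 and 0.53, and in 7 of them it did not pass (highest limma adjusted p = 0.65).

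A UMI of Mki67 was found in 56.6% ± 7.06 (SD, n = 4 libraries) of Eomes+Otx2+ cells and 37.6% ± 9.79 of double-negative cells, a difference of 19.0 points, or 10.9 points in the 3 larger libraries. Top2a, a topoisomerase of S to M phase, gave 52.1% ± 5.23 against 44.4% ± 2.07. Pcna, the sliding clamp of replication, gave 64.2% ± 10.5 against 56.1% ± 5.25. Each share was higher in 4 of 4 libraries, and the exact two-sided sign-flip test gave p = 0.125 for each of these 3 genes before any adjustment, the smallest that 4 pairs allow. With each cell thinned to 10000 UMIs, the differences were 17.2, 10.9 and 12.3 points, the last of them in 3 of 4 libraries. In the 3 larger libraries the differences of Top2a and Pcna were 6.19 and 4.46 points, and 8.07 and 4.37 points after thinning. Transcripts of the cycle were thus found in most, not all, of these cells: 65.6% ± 8.39 (SD, n = 4) had a UMI of Mki67 or Top2a, against 52.5% ± 3.56 of double-negative cells, a difference of 13.2 points, or 7.87 points in the 3 larger libraries. Such shares were not particular to these cells. Otx2-only cells had 63%, 65.5% and 66.8% in the 3 larger libraries, against 59.2%, 61.1% and 64.5% of Eomes+Otx2+ cells. In RL e13 replicate 1 the shares were 72.7% against 77.8%.

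**Figure D3:**
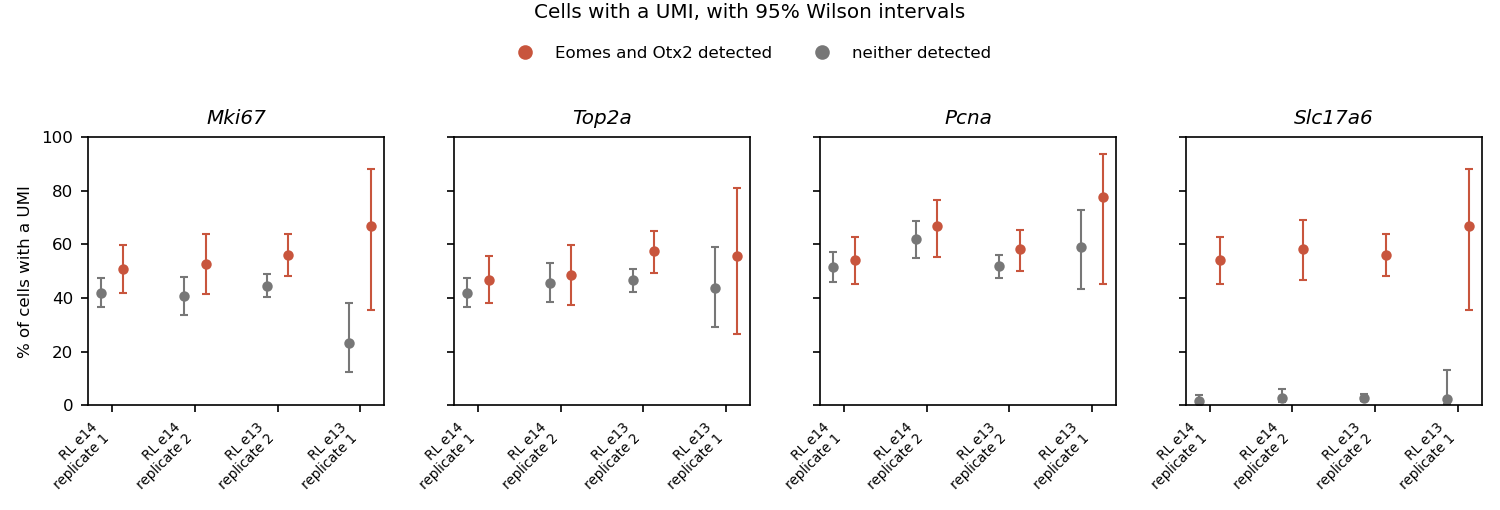
Percent of cells with at least 1 UMI of Mki67, Top2a, Pcna and Slc17a6 in each RL library, for cells with Eomes and Otx2 (red) and with neither (grey), with 95% Wilson intervals that cover counting error only. The intervals of Mki67, Top2a and Pcna overlap in all 4 libraries, and those of Slc17a6 lie apart in all 4.

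Genes of neuronal differentiation were mostly higher in the same comparison. Of 16 tested, 12 were higher and 2 lower (median 0.90). Gap43, a growth cone protein, stood at 1687, 2050 and 1845 CPM against 684.2, 643.7 and 496.2 CPM (1.61 ± 0.08, SE, n = 3, limma adjusted p = 2.2e-07). Stmn2, a microtubule regulator, was higher by 1.59 and Mapt, the tau protein, by 1.66. The lower genes were Snap25 (-1.02) and Syt1 (-0.74), both of synaptic vesicle release, and they are named after their values were seen. Of 13 neurogenic factors, 7 were higher and 2 lower (median 0.33), with Ebf1 (2.23), Neurod4 (1.97) and Nhlh2 (1.25) the largest.

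Genes of neural stem cells and of the rhombic lip ventricular zone were mostly lower. 7 of 9 radial glia genes were lower and 1 was higher (median -0.75), the higher one being Vim (0.54), which encodes vimentin and is named after its value was seen. The summed level of the 14 radial glia genes was not lower, at 4190 to 6315 CPM against 4255 to 4580 CPM in double-negative cells. Sox2, a stem cell factor, stood at 31.1, 32.6 and 41.9 CPM against 113.4, 75.6 and 87.3 CPM (-1.26 ± 0.13, SE, n = 3, limma adjusted p = 3.9e-05), with ranges that did not overlap. Nes, which encodes nestin, was lower by 1.26 on the log2 scale. Hes5, a target of Notch signalling and a member of the radial glia list too, was lower by 1.55, and with the ligands Dll1 (-0.85) and Dll3 (-0.77) it was among 4 of 7 Notch pathway genes that were lower, with none higher (median -0.37). In the rhombic lip list 5 of 7 were lower and Olig3 alone was higher (median -0.59), and Cyp26b1, which degrades retinoic acid, was lower by 1.69.

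The homeobox list was split, with 4 of 15 higher and 8 lower (median -0.40). Pax6, a factor of the rhombic lip and its granule cells, stood at 539.0, 549.0 and 521.9 CPM against 178.7, 176.0 and 149.7 CPM (1.65 ± 0.06, SE, n = 3, limma adjusted p = 2.4e-08). Barhl2, the paralogue of Barhl1, stood at 39.0, 55.1 and 18.9 CPM against 2.13, 1.13 and 2.44 CPM (2.53 ± 0.24, adjusted p = 2e-05). Tlx3, a factor of glutamatergic identity, stood at 214.9, 338.3 and 55.4 CPM against 80.7, 106.8 and 6.33 CPM (1.80 ± 0.15, adjusted p = 9.2e-06). For Tlx3 the class ranges overlapped: the e14 double-negative values lay above the Eomes+Otx2+ value of RL e13 replicate 2, and in RL e13 replicate 1 no UMI was found in Eomes+Otx2+ cells. Meis2, a TALE homeobox factor, was lower by 1.43 on the log2 scale.

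Other lists were mixed, and over all genes tested 10.2% were higher and 8.57% lower. Of 12 granule cell progenitor genes, 5 were higher and 3 lower (median 0.03), and in the differentiating granule cell list 6 of 11 were higher and 2 lower (median 0.57). The axon guidance list had 4 of 17 higher and 8 lower (median -0.07), with Plxnb2 up by 1.47, and Epha4 down by 2.02 and Cxcr4, a chemokine receptor, down by 1.43. FGF pathway genes were lower in 4 of 8 and higher in 1 (median -0.41): Etv5 (-1.61) and Etv4 (-0.84) are transcriptional targets of the pathway, and the ligand Fgf8 was higher (0.97), though not with cells thinned before the rule (-0.06). Wnt pathway genes were higher in 2 of 7 and lower in 3 (median -0.02), with Axin2, a feedback target, higher by 1.12 and Fzd10, a receptor, lower by 1.14. In the hedgehog list 1 of 9 was higher (Gas1, a co-receptor, 0.83) and 1 lower (Ptch1, the receptor, -0.44) (median -0.18), near the shares over all genes. Ptch1 did not pass in 5 of 17 alternatives (highest limma adjusted p = 0.43). In the BMP response list only Bmpr1b (1.08) of 6 passed the test (median 0.04). Axin2 (-0.43), Bmpr1b (-1.56) and Fgf8 (-0.42) went the other way in RL e13 replicate 1. Axin2 and Bmpr1b each did not pass in 1 of 17 alternatives (highest limma adjusted p = 0.18 and 0.63). Adhesion genes were higher in 6 of 12 and lower in 5 (median -0.10), with L1cam up by 1.95 and Pcdh9 down by 1.46. The glutamatergic nuclei list had 3 of 6 higher and 2 lower (median 0.33), and the glutamate signalling list 3 of 8 higher and 3 lower (median 0.04).

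Of the genes linked to Group 3 and Group 4 medulloblastoma, 4 of 18 were higher and 4 lower (median -0.06), where 10.2% of all genes tested were higher and 8.57% lower. The oncogene Myc was lower by 1.48 on the log2 scale, at 7.22 against 27.7 CPM. In RL e13 replicate 1 Myc was higher (0.40), and in 1 of 17 alternatives it did not pass (highest limma adjusted p = 0.15). Mycn (-0.18, limma adjusted p = 0.13), Mycl (-0.06, adjusted p = 0.66) and Cdk6 (-0.28, adjusted p = 0.25) did not pass the test. In the list of the CBFA2T corepressor complex, 2 of 14 were higher and 3 lower (median -0.03), with Cbfa2t2 lower by 0.66 and Cbfa2t3 by 0.43 on the log2 scale. Runx1t1, the third family member, stood at 64.4 ± 32.0 against 63.3 ± 16.7 CPM (SD, n = 3, log2 difference -0.04, adjusted p = 0.85). Reln (0.52) and Erbb4 (0.57) were higher, Wls, the Wnt secretion factor of the rhombic lip, was lower (-0.47), and Insm1 was at 0.17 (adjusted p = 0.051). Of 17 alternatives, Wls did not pass in 8 (highest limma adjusted p = 0.6), Erbb4 in 3 (highest 0.13) and Reln in 2 (highest 0.66). Tbr1 was under the minimum level for a test, and Crx was not analysed here.

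Transcripts of other cell types were scarce in the Eomes+Otx2+ cells. The 9 GABAergic genes summed to 4.72 to 13.5 CPM over the 3 libraries, with Ptf1a at 0, against 24.6 to 50.1 CPM in double-negative cells. The 7 microglia genes summed to 0.534 to 2.10 CPM with C1qa and Cx3cr1 at 0, the 5 endothelial genes to 0.803 to 4.22 CPM with Pecam1 at 0, the 6 meningeal genes to 0 to 4.10 CPM, the 6 oligodendrocyte genes to 12.2 to 19.7 CPM with Olig1 at 0, and the 5 red blood cell genes to 18.1 to 48.0 CPM (21.6 to 56.6 CPM in double-negative cells). The 3 photoreceptor genes summed to 1 to 2.4 CPM, and the 10 roof plate and choroid plexus genes to 10.1 to 19.8 CPM. In double-negative cells the roof plate and choroid plexus genes summed to 5.25 to 9.25 CPM, a range below that of the Eomes+Otx2+ cells, and their part in the differences was not tested. Of the 9 unipolar brush cell genes in the table besides the rule genes, 3 were tested and 1 was higher (median 0.25), Cacna2d1 (2.51, and 1.70 with a limma adjusted p = 0.13 at a minimum of 5 cells), while Lmx1b and Grm2 were at 0. Of 8 genes of dissociation and immediate early response, 4 were higher and none lower (median 0.38), led by Jun (0.93), Egr1 (0.67) and Jund (0.51), and their part in the differences was not tested. Of 8 genes of the amino acid stress response, 1 was higher and 3 were lower (median -0.06), with Psat1 lower by 1.12, Ddit4 by 0.61 and Phgdh by 0.42 on the log2 scale. Egr1 (-0.79), Jund (-0.15) and Ddit4 (0.28) went the other way in RL e13 replicate 1. The depth of the 2 classes was close, with a median of 16311, 21249 and 19639 UMIs in Eomes+Otx2+ cells and 15938.5, 20964 and 18657 UMIs in double-negative cells. Without the 5% of cells with the most UMIs, 755 genes were higher and 644 lower.

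Otx2-only cells share Otx2 with the cells described, and the comparison with them separates cells by the detection of Eomes. The neuronal genes were higher beside Eomes here too. Of 8153 genes tested over 3 libraries, 653 were higher (8.01%) and 449 lower (5.51%) in Eomes+Otx2+ cells (limma, adjusted p under 0.05, median of all genes -0.00). With RL e13 replicate 1 added at a minimum of 5 cells the counts were 106 and 45, with no library block 74 and 30, and with cells thinned before the rule 197 and 102. Without RL e13 replicate 2, 285 genes were lower. Since this and the other comparisons share the Eomes+Otx2+ cells, their gene lists are not independent of each other.

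Slc17a6 was higher by 2.18 ± 0.12 (SE, n = 3, limma adjusted p = 1e-08), its level in Otx2-only cells being 11.9, 9.21 and 19.1 CPM. Stmn4 (1.88), Mab21l2 (1.69), Mapt (1.61), Cartpt (1.57), Neurod1 (1.56), Col16a1 (1.54) and Ank3 (1.48) followed among genes at 50 CPM or more in the higher class. 14 of 16 neuronal differentiation genes were higher and none lower (median 0.88), and 10 of 13 neurogenic factors were higher and 2 lower (median 0.42). Fst (-2.43) and Pvalb (-2.41) had the largest losses at that limit, followed by Sparc (-2.05), Thsd7b (-1.52), Sema7a (-1.19), Phlda1 (-1.19), Rfx4 (-1.16) and Ccnd1 (-1.03). Otx2-only cells had Fst at 127.9, 120.7 and 172.7 CPM, under the double-negative cells and above the Eomes+Otx2+ cells in each library. Ccnd2 differed by 0.43 ± 0.04 (adjusted p = 2.6e-06), since its level in Otx2-only cells was already 1785, 1301 and 1110 CPM. Of 9 radial glia genes 7 were lower and 2 higher (median -0.64), and of 18 G2 and M phase genes 6 were higher and none lower (median 0.19). Of 16 S phase genes 1 was lower and none higher (median -0.13). Tlx3 (-0.06, adjusted p = 0.82) and Mki67 (0.04, adjusted p = 0.79) did not pass the test.

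Eomes-only cells share Eomes and lack Otx2, and against them the direction of the neuronal genes was the opposite one. Only 2 libraries, RL e14 replicate 1 and RL e13 replicate 2, had 20 or more Eomes-only cells. With 2 pairs there was 1 residual degree of freedom, and limma took the spread of every gene entirely from the trend over all genes, so the adjusted p-values are far smaller than 2 pairs can bear out and are not printed for single genes. Of 8173 genes tested, 284 were called higher (3.47%) and 383 lower (4.69%) in Eomes+Otx2+ cells (median of all genes -0.02). With the 19 Eomes-only cells of RL e14 replicate 2 added at a minimum of 10 cells, 315 were higher and 317 lower, of which 222 and 272 were among the first. With RL e13 replicate 1 added as well at a minimum of 5 cells the counts were 110 and 123, with no library block 11 and 18, with voom on summed UMIs 155 and 282, and with cells thinned before the rule 119 and 125, a fit over 3 libraries, since RL e14 replicate 2 then had 20 Eomes-only cells. TMM scaling (trimmed mean of M-values) turned the balance, with 370 higher and 299 lower.

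15 of 16 neuronal differentiation genes were called lower and none higher (median -0.80). 14 of 16 S phase genes were called higher and none lower (median 0.89), as were 13 of 18 genes of G2 and M phase (median 0.55). These calls carry the limit of the 2 pairs given above. Olig3 stood at 68.0 and 72.3 CPM in Eomes+Otx2+ cells against 1.74 and 6.59 CPM in Eomes-only cells of RL e14 replicate 1 and RL e13 replicate 2 (log2 difference 3.09), and at 47.4 against 2.73 CPM in RL e14 replicate 2. Mab21l2 (2.64), Rnf182 (2.54), Cartpt (2.38), Vat1l (1.92), Slc17a6 (1.82) and Ccnd2 (1.73) were also higher, as were Camk4 (1.57) and Medag (1.56), and Slc17a6 in Eomes-only cells was at 28.8, 35.7 and 13 CPM in the 3 libraries. Ccnd2 in Eomes-only cells was at 550.9, 564.1 and 560.2 CPM, close to its level in double-negative cells. Fam84a (-2.21), Fst (-2.19), Meis2 (-2.17), Gabra2 (-2.03), Cbln2 (-1.92), Nefl (-1.86), Pvalb (-1.84) and Plppr1 (-1.76) had the largest losses among genes at 50 CPM or more in the higher class. Neurod1 was at 138.8, 81.9 and 88.9 CPM in Eomes-only cells, overlapping the range of the Eomes+Otx2+ cells (log2 difference 0.08). Runx1t1 was lower by 1.32 and Ccnd1 by 1.31 on the log2 scale.

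**Figure D4:**
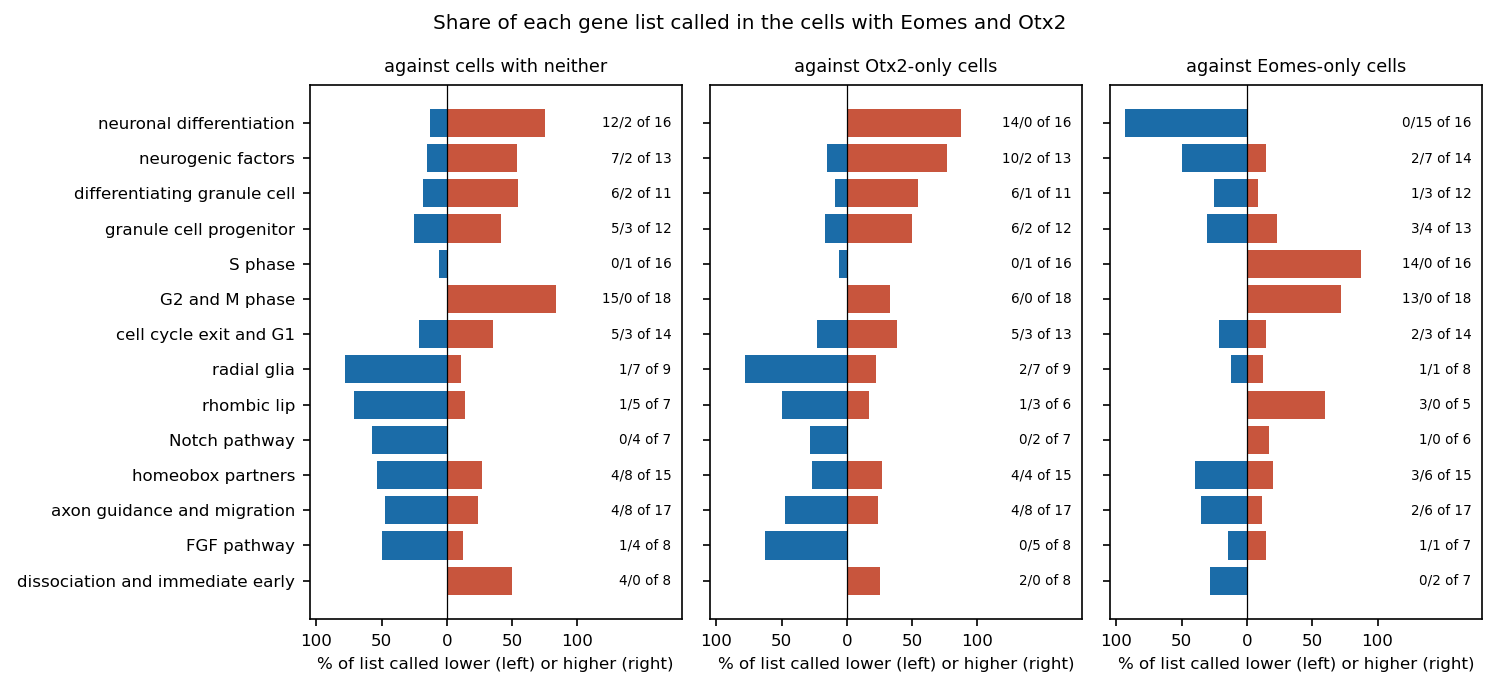
Share of the tested genes of 14 lists that were called higher (red, right) or lower (blue, left) in Eomes and Otx2 cells in each of 3 comparisons, with the counts higher/lower of tested at the right. Neuronal differentiation genes were called 12 higher and 2 lower, 14 and 0, and 0 and 15 of 16, and S phase genes 0 higher of 16, 0 of 16 and 14 of 16. The calls against Eomes-only cells rest on 2 libraries.

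Among the Eomes+Otx2+ cells, levels varied with the number of Eomes UMIs. The cells were split after the data were seen into those with 1 UMI of Eomes (142 cells), 2 to 3 (119 cells) and 4 or more (95 cells), and the genes given here were chosen after their values were seen, so the values are a description without a test. The median depth of these groups lay between 16080 and 17391 UMIs in RL e14 replicate 1, 20532 and 22770.5 in RL e14 replicate 2 and 18688.5 and 21350 in RL e13 replicate 2. Ccnd1 went from 151.4 ± 54.8 to 83.7 ± 34.8 and 23.2 ± 18.8 CPM (SD, n = 3 libraries) from the lowest to the highest group. Fst went from 42.0 ± 6.60 to 15.7 ± 8.67 and 1.87 ± 3.24 CPM, with none detected in the highest group of either e14 library. Sox2 was at 49.3 ± 14.8, 26.7 ± 5.98 and 24.6 ± 7.48 CPM.

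Slc17a6 went the other way, from 44.9 ± 18.0 to 71.5 ± 6.80 and 127.7 ± 23.6 CPM, and Neurod1 from 73.4 ± 32.5 to 105.0 ± 36.9 and 148.4 ± 15.2 CPM. For both genes every library had its highest value in the cells with 4 or more Eomes UMIs. Tubb3, a neuronal tubulin, was at 679.8 ± 174.8, 1129 ± 335.0 and 1463 ± 528.5 CPM. Atoh1 was at 341.7 ± 29.2, 276.3 ± 64.8 and 249.8 ± 56.3 CPM. Ccnd2 was at 1835 ± 474.3, 1830 ± 340.5 and 2036 ± 568.3 CPM, and from the lowest to the highest group it went from 2352 to 2667, 1734 to 1876 and 1420 to 1565 CPM in the 3 libraries. Top2a was at 353.9 ± 44.0, 353.0 ± 59.9 and 519.2 ± 84.3 CPM, and each library had its highest value in the cells with 4 or more Eomes UMIs (524.9, 432.2 and 600.5 CPM). Mki67 (240.2 ± 13.8, 181.4 ± 65.3 and 229.5 ± 72.1 CPM) had no order of the groups that all 3 libraries shared. Across the 356 cells, Spearman's rho was 0.35 between Eomes and Slc17a6, 0.48 between Otx2 and Ccnd2 and -0.34 between Atoh1 and Dcx, in cells that share libraries and differ in depth.

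**Figure D5:**
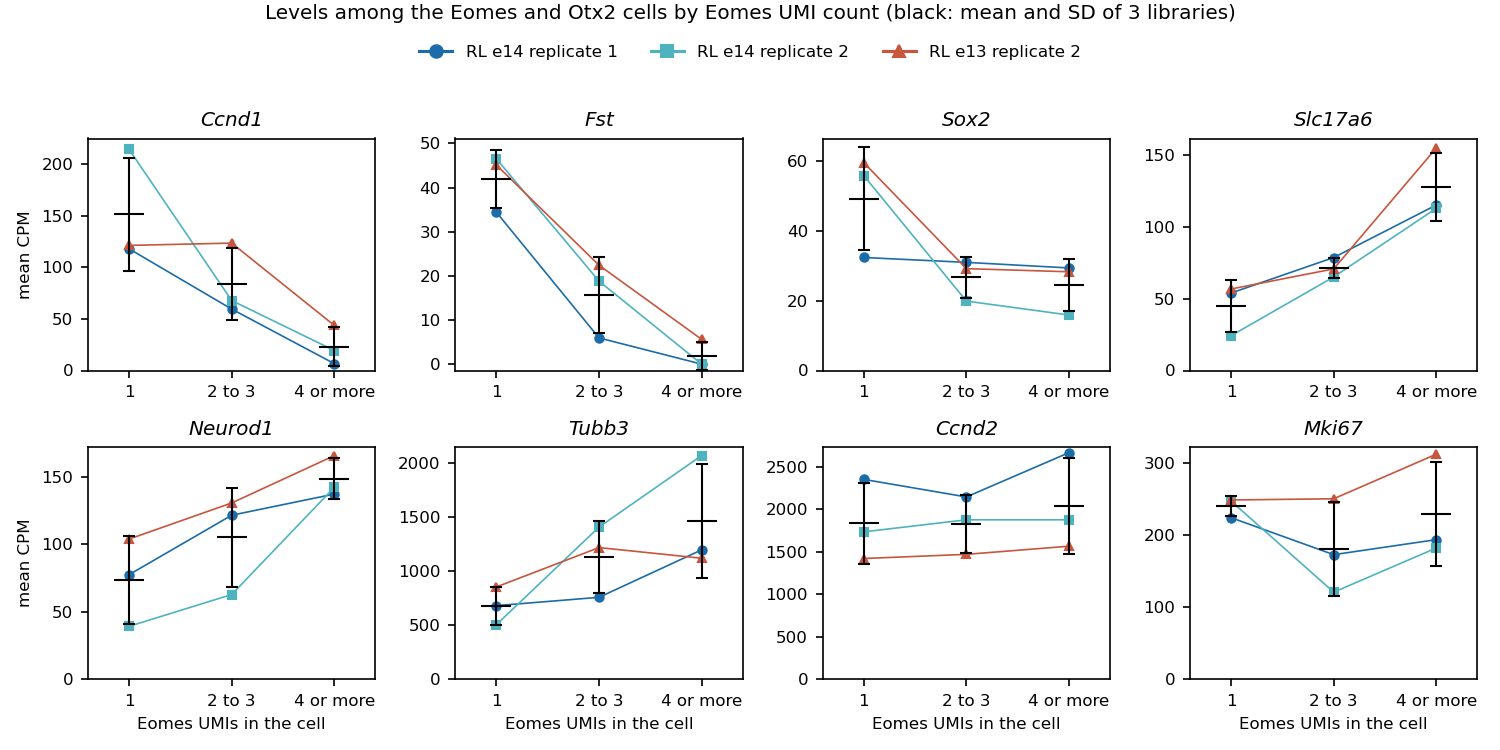
Mean CPM of 8 genes in Eomes and Otx2 cells with 1, 2 to 3, or 4 or more UMIs of Eomes, 1 line per library for 3 RL libraries, with the mean and SD of the libraries in black. Ccnd1 and Fst are lowest and Slc17a6 and Neurod1 highest in the group with 4 or more UMIs, and Mki67 shows no order that the libraries share.

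The 94 cells that had Lmx1a besides the 4 genes, 1 of them in RL e13 replicate 1, lay further in the same directions for several of these genes. Slc17a6 was at 130.1, 136.9 and 187.2 CPM in them, Mab21l2 at 199.8, 318.7 and 133.6 CPM, and Ccnd1 at 8.29, 12.5 and 23.1 CPM. Each of these values lay outside the range of the Eomes+Otx2+ cells. Fst was at 0, 0 and 3.96 CPM. Tlx3 went the other way, at 12.1, 11.8 and 14.4 CPM against 214.9, 338.3 and 55.4 CPM in the cells without Lmx1a. Ccnd2 was at 2534, 1645 and 1477 CPM, against 2351, 1821 and 1473 CPM without Lmx1a. No test was run on this class, which the rule set apart.

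No test between ages was run across genes, since only RL e13 replicate 2 of the e13 libraries had 20 or more Eomes+Otx2+ cells. Side by side, Tlx3 was at 214.9 and 338.3 CPM in the e14 libraries and 0 and 55.4 CPM in the e13 libraries, and Cartpt at 43.6 and 294.6 CPM against 0 and 51.6 CPM. Barhl2 was at 39.0 and 55.1 CPM against 10.3 and 18.9 CPM. For Tlx3 and Barhl2, but not for Cartpt, both e14 values lay above both e13 values. Olig3 was at 68.0 and 47.4 CPM against 103.4 and 72.3 CPM, the reverse order. These orders of Tlx3 and Olig3 were not particular to Eomes+Otx2+ cells. In double-negative cells a UMI of Tlx3 was found in 17.4% and 23.6% at e14 and 2.56% and 4.25% at e13. For Olig3 these shares were 9.4% and 6.59% against 46.2% and 15.3%. RL e13 replicate 1 held only 9 Eomes+Otx2+ cells, and the age tag of RL e13 replicate 2 says e14. Pax6 was at 539.0 and 549.0 CPM against 517.8 and 521.9 CPM, and Slc17a6 at 78.0 and 65.1 CPM against 58.1 and 86.5 CPM.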

How the data were processed

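Single cells were sequenced with 10x Chromium v3 and v3.1 kits, per the labels' protocols; the aligner Cell Ranger and the build mm10 appear in the list, per the submitters' processing notes. Filters on cells and doublets: not given in the sources used here, and no doublet caller was run. The authors deposited natural log values, ln(1 + 10000 × UMI / total UMI of the cell), for 15971 genes in 6987 cells. UMI counts were recovered from them (100% whole within 1% of a count). Median depth per RL library was 15855 to 19970 UMIs. A second deposited file named each cell's library; 2 of its 5 names were matched to titles by elimination. The members, the 33 gene lists and the tests were chosen with earlier results of these data known. The labels do not tie libraries to separate animals, and the p-values then rest on spread between libraries, which may be technical. Against double-negative and Otx2-only cells, limma had 2 residual degrees of freedom per gene and 9.31 and 13.8 prior ones. Most of the weight for the spread behind those p-values thus came from the trend over all genes.

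CPM values were averaged over the cells of a class wherever a library held at least 20 of them. Genes averaging 10 CPM were kept and tested on log2(CPM + 5) with limma 3.58.1 (R 4.3.3, trend), the library being a block because both classes came from the same library, with Benjamini-Hochberg adjustment over all genes tested. The procedure was also run on simulated data. Those data held no choice of cells by detection, so that run does not bear on the effect of the rule. Intervals are 95% Wilson intervals (Python 3.11.15, scipy 1.17.1). The genes named are the 5 rule genes, the 8 called genes with the largest gain and loss per comparison (one direction throughout, at least 50 CPM in either class), up to 3 called genes per list, a fixed panel, and Top2a and Pcna for the cycling shares; others are said to be chosen after their values were seen, and 1 gene is not reported here. Gene positions come from gencode on GRCm38. Alternatives changed the scaling, filter, pseudocount, block, cell minimum, depth, detection threshold and libraries, or used voom on summed UMIs. The e16 library entered no comparison.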

Additional observations from a re-analysis of the deposited data

Results flagged for a closer look

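Cells outside the RL libraries met the same rule: 74 of the 2676 cells of the EomesCreER-e16 library (2.77%, 95% Wilson interval 2.21% to 3.46%) had Atoh1, Barhl1, Eomes and Otx2 without Lmx1a. No comparison used this library, and no background share for the 4 genes together was at hand. In that library 148 of the 222 cells with the 4 genes also had Lmx1a (66.7%, 60.2% to 72.5%), against 94 of 450 in the RL libraries (20.9%, 17.4% to 24.9%). The 74 cells had Atoh1 at 120.6 CPM, Eomes at 430.2, Otx2 at 693.0, Slc17a6 at 290.7, Mab21l2 at 382.4, Ccnd2 at 1547 and Ccnd1 at 3.02 CPM, and no UMI of Fst. Age, title and depth differ together between this library and the RL libraries and cannot be told apart.

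Runx1t1, which did not pass the test between Eomes+Otx2+ and double-negative cells, moved in opposite directions by the age in the titles. Its log2 difference was -0.32 and -0.08 in the e14 libraries and 0.47 and 0.28 in the e13 libraries, so that the e14 difference was 0.58 lower on average (e14 minus e13, -0.58). The 0.47 comes from the 9 Eomes+Otx2+ cells of RL e13 replicate 1, and the 0.28 from RL e13 replicate 2, whose age tag says e14, so by the tags the e14 libraries do not share a direction. This difference between ages was not tested.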

How the results depend on the processing

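Counts are given as higher and lower in Eomes+Otx2+ cells. The library pairs the classes, and with no replicate block the counts fell to 352 and 277 against double-negative, 74 and 30 against Otx2-only and 11 and 18 against Eomes-only cells. Thinning before the rule gave 418 and 411, 197 and 102, and 119 and 125, the last over 3 libraries, since RL e14 replicate 2 then had 20 Eomes-only cells. A minimum of 5 cells, added after seeing the data, brought in RL e13 replicate 1 and gave 309 and 259, 106 and 45, and 110 and 123. Also added after seeing the data, cells with a UMI of Mki67 or Top2a gave 511 higher against double-negative and 365 and 240 against Otx2-only cells, and cells without one gave 377 lower, 366 and 187, and 109 and 154. Leaving out 1 library gave 648 to 743 and 482 to 673 against double-negative cells, and 500 to 580 and 285 to 422 against Otx2-only cells. Against Eomes-only cells, voom gave 155 higher and omitting each library's top 5% of cells by UMIs 189. There, leaving out a library and cycling cells could not be fitted. Matching by UMIs kept every Eomes-only cell, since they were fewer than members, and so could not differ from the main fit. Fgf8 against double-negative cells was -0.06 after thinning (limma adjusted p = 0.95). Against Otx2-only cells, Hmmr was -0.01 after thinning (limma adjusted p = 0.99) and -0.14 at 5 cells (adjusted p = 0.87), Fam84a -0.95 with 2 or more UMIs of Eomes and Otx2 (adjusted p = 0.0054) and Cdc20 -0.38 without cycling cells (adjusted p = 0.55). The cause was not tested. The share difference between ages (1.38 to 5.69 points), the cycling shares and the odds ratios kept their direction under the alternatives run. Low counts limit genes near 10 CPM, the 9 cells of RL e13 replicate 1 and the Eomes-only class. No test of e14 against e13 cells was run across genes.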
